A study of Mus musculus with 12 samples.

Results

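The comparison described here is between podocytes of Nsd2 knockout mice at 28 weeks and at 20 weeks of age. Podocytes are the epithelial cells of the kidney glomerulus whose interdigitating foot processes and slit diaphragms form the outer layer of the blood filter. The members are 6 of the 12 RNA sequencing libraries of the study, 3 from knockouts at each age, taken by their labels. They are compared over the genes listed in the count tables of both ages. The knockout mice had the genotype Cre+/Nsd2fl/fl and the control mice Cre-/Nsd2fl/fl. All mice, controls included, were in a diabetes model made with a high-fat diet and streptozotocin (HFD/STZ), and there were no untreated mice in these files. The Cre is described as specific to podocytes, its driver is not named in the labels, and the labels do not say whether animals were pooled. Nor do they say that each library is a mouse of its own. The p-values below therefore reflect library-to-library spread only, part of which may be technical. The labels give 1 batch to all libraries, and each age was deposited as a table of its own. The question put to these groups is how transcription in knockout podocytes differed between an early and an advanced stage of diabetic kidney disease.

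NSD2 is a histone methyltransferase that places mono- and dimethyl marks on lysine 36 of histone H3, a mark of active chromatin that limits the spread of Polycomb marks. Podocytes hardly divide in the adult kidney, and they maintain the slit diaphragm, an actin-based foot process and, together with endothelial cells, the glomerular basement membrane. In diabetic kidney disease podocytes lose these structures and are shed, and inflammatory and interferon-driven genes are commonly raised in the kidney.

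Nsd2 transcript was present at both ages. It was at 52.4, 31.6 and 45.1 CPM (counts scaled to library size) in knockout libraries 1 to 3 at 20 weeks and at 34.9, 35.2 and 43.0 CPM at 28 weeks. The ages overlapped, with a log2 fold change of -0.19 (SE 0.19, edgeR adjusted p = 0.675). The 6 control libraries held 66.6 to 97.1 CPM, above every knockout library. Gene totals cannot tell the floxed exons from the rest. The last exon of Nsd2 (GRCm38 chromosome 5, 33820725 to 33897975, plus strand) runs into that of Nelfa on the minus strand, and the strand setting of the counts is unknown. Among related enzymes, Nsd1 was at 109, 51.6 and 113 CPM at 20 weeks and at 60.6, 79.6 and 95.3 CPM at 28 weeks. Setd2, which makes the trimethyl mark, was at 99.4, 32.3 and 86.4 CPM and then at 37.3, 55.3 and 62.4 CPM. Both overlapped between the ages.

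The labelled cell type was checked against defining podocyte markers. Podxl, which encodes the surface sialoprotein podocalyxin, was between 148 and 676 CPM in the 6 knockout libraries. Synpo, the foot process actin protein synaptopodin, was between 48.2 and 455 CPM, and the transcription factor Wt1 between 29.3 and 91.5 CPM. Nphs1, which encodes nephrin, was low in every library, between 0.916 and 6.81 CPM. Smooth muscle actin Acta2 was between 2336 and 6532 CPM, so transcripts that also belong to contractile cells were abundant in these preparations. Fewer cells of a type and less RNA per cell cannot be told apart in such bulk libraries.

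Total counts ran from 31405349 to 37524133 per knockout library. A gene with 0 reads could still have had a level of up to 0.0789 to 0.0987 CPM, taking 3 counts as the limit, which covers counting error only. Knockout libraries of 1 age differed among themselves as much as libraries of different ages did. The SD of log2 differences over genes was between 0.717 and 1.03 for the 6 pairs of the same age, and between 0.709 and 1.19 for the 9 pairs of different age. Library 1 at 28 weeks stood apart, at -89.1 on the first principal component (41.4% of the variance) against -21.0 to 55.2 in the others. Library 1 at 20 weeks was at -61.1 on the second component (21.7%), against -20.3 to 43.7. Among the knockout libraries, 28-week library 1 held the most transcripts of the junction and keratin, parietal epithelial, and loop to collecting duct lists. It held the fewest of contractile cells. Of proximal tubule markers it held 225 CPM, below the 240.2 CPM of 20-week library 1. Its genes of epithelial junctions and keratins summed to 10040 CPM, against 230.5 and 1276 CPM in the other 28-week libraries and 568.7 to 3619 CPM at 20 weeks. The 6 control libraries held 5721 to 11630 CPM of these genes, so this library lay within the control range and the other knockout libraries below it. Its Myh11, smooth muscle myosin, was at 2.40 CPM, against 57.4 to 74.9 CPM in the other 5 libraries. Many list counts are therefore given below with and without it, and the others from the main fit alone. For some lists the values with library 1 of both ages left out are given too, and 471 of all genes (2.95%) were then higher and 424 (2.65%) lower at an unadjusted p below 0.05.

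**Figure D1:**
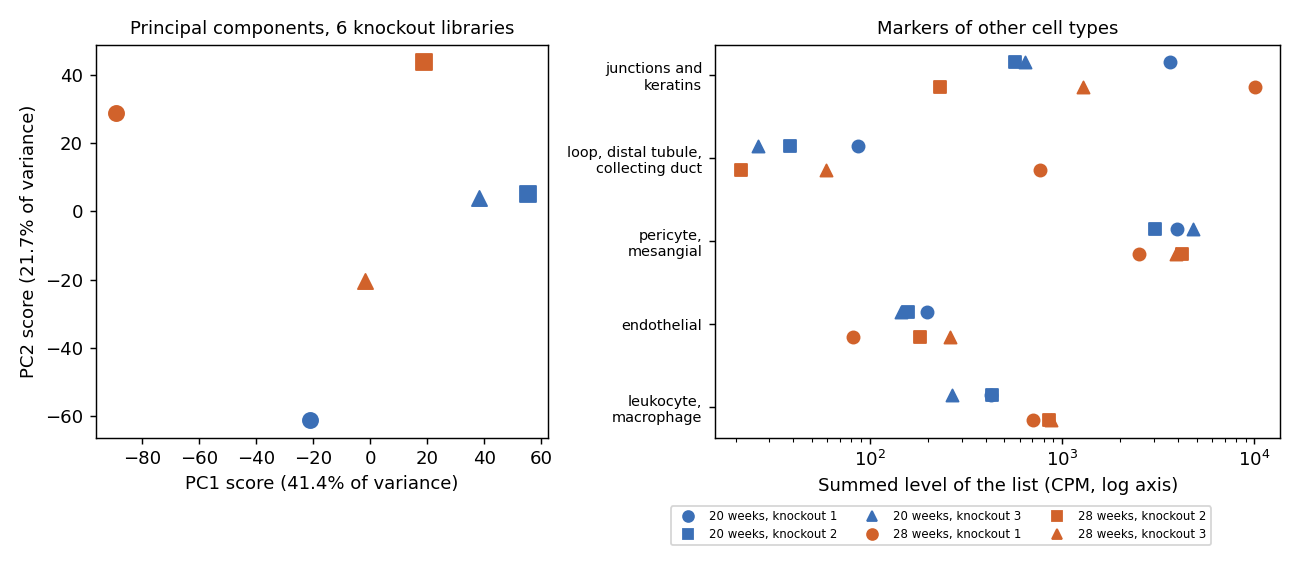
Left, scores of the 6 knockout libraries on the first and second principal components of log2 CPM. Right, summed CPM of 5 marker lists of other cell types in each library on a log axis. The 28-week library 1 lies at -89.1 on the first component and holds 10040 CPM of junction and keratin genes. Leukocyte markers sum to 703 to 874 CPM in the 28-week libraries against 267 to 432 CPM at 20 weeks. Most of that sum is Lyz2 alone, at 502 to 787 CPM against 224 to 364 CPM.

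Levels also differed between the ages by gene length. Those reaching 1 CPM on average over the knockout libraries were split into 10 bins of equal size by the length implied by the deposited values. The bin of shortest genes (up to 1383 bases) had a median log2 fold change of 0.28 and the bin of longest genes (from 9488 bases) a median of -0.20. Among the shortest 27.3% of genes had an unadjusted p below 0.05 with higher values at 28 weeks, and among the longest 1.41%. Against the 20-week knockout mean, the medians of the shortest and longest bins were 0.41 and -0.34 in 28-week library 1, 0.31 and -0.18 in library 2, and 0.12 and 0.03 in library 3. Within the 20-week group library 2 had the same tilt, at 0.10 and -0.41. In controls the change with age had medians of -0.09 and 0.03 in these bins. Counts for some gene lists are therefore also given from a fit with a length term per library in the offsets. Where no such count is given, the dependence of the list on length is not described. That fit was chosen after seeing the data.

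**Figure D2:**
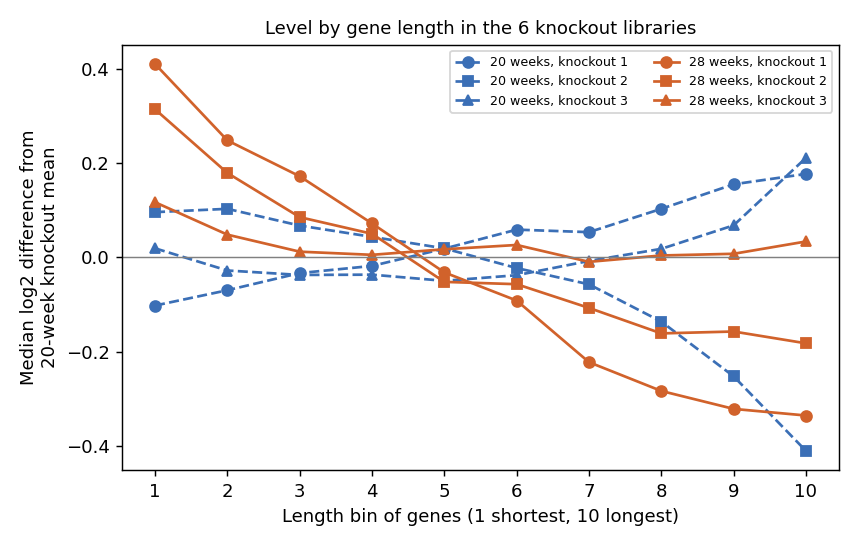
Median log2 difference of each knockout library from the 20-week knockout mean, for 10 bins of genes by length from shortest to longest. The line of 28-week library 1 runs from 0.41 to -0.34, that of 28-week library 3 from 0.12 to 0.03, and that of 20-week library 2 from 0.10 to -0.41.

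No gene passed the test for a change with age in the knockouts. Of 15662 genes tested with edgeR's quasi-likelihood test, 0 (0%) were called higher and 0 (0%) lower at 28 weeks at a Benjamini-Hochberg adjusted p below 0.05. The smallest adjusted p was 0.429, and single genes below are described by their values and unadjusted p. At an unadjusted p below 0.05 there were 1759 genes (11.2%), 1069 higher (6.83%) and 690 lower (4.41%). The 3 libraries of each age did not overlap for 1291 genes with higher values (8.24%) and 1060 with lower values (6.77%) at 28 weeks. DESeq2's Wald test on the same counts called 22 genes higher and 18 lower. Without 28-week library 1 edgeR called 1 gene, the acute phase gene Saa3, and 423 genes (2.64%) were higher and 493 (3.07%) lower at an unadjusted p below 0.05. With gene length in the offsets these were 744 (4.75%) and 652 (4.16%), with 0 calls. The median log2 fold change over all genes was 0.04, and the median absolute value was 0.27. In the controls, over the same ages, the median absolute value was 0.16 and 466 genes (2.98%) had an unadjusted p below 0.05, with 0 called. The difference between the knockouts' and the controls' change with age was tested as an interaction. It gave 0 calls by edgeR, a smallest adjusted p of 0.538 and 1428 genes (9.12%) at an unadjusted p below 0.05, and 27 calls by DESeq2. Control libraries 2 and 3 at 28 weeks were closer to each other than any other pair of a group, with a mean chi-square over genes of 4.58, above the value of 1 that sampling noise gives, against 74.5 to 224 for the others. With their counts summed to 1 library edgeR still called 0 genes in each of these contrasts. Values given below without 28-week control library 1 rest on this close pair at 28 weeks.

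Genes that respond to interferon and present antigen mostly had higher values at 28 weeks. Of 34 tested members, 12 had higher values at an unadjusted p below 0.05 (6.83% of all genes) and 0 lower values. The ages did not overlap for 14 members (8.24% of all genes), all higher at 28 weeks. Their median log2 fold change was 0.45, against 0.04 over all genes and -0.05 for the same list in controls (-0.15 to 0.06 with each control library left out). When 28-week library 1 was left out the count was 11 (2.64% of all genes) and the median 0.55. With gene length in the offsets the count was 9 (4.75% of all genes) and the median 0.40. None was called by edgeR, while Psmb8 and Isg15 were called by DESeq2.

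The inducible proteasome subunits, which replace constitutive ones to make peptides for MHC class I, were higher in every 28-week library. Psmb8 (chromosome 17, 34197721 to 34201454, plus strand) was at 8.74, 10.9 and 10.3 CPM at 20 weeks and at 25.7, 20.1 and 18.3 CPM at 28 weeks. Its log2 fold change was 1.10 (SE 0.20, edgeR unadjusted p = 0.000194, DESeq2 adjusted p = 0.00478), and it was 0.90 without 28-week library 1. In controls Psmb8 had a log2 fold change of -0.34 (-0.15 without 20-week control library 3), and the interaction had an unadjusted p of 0.00034. Psmb10 was at 15.9, 17.9 and 15.4 CPM and then at 19.6, 21.7 and 26.1 CPM. Psmb9 was at 1.29, 1.47 and 1.37 CPM and then at 2.05, 2.01 and 2.23 CPM. The ages did not overlap for these 3 subunits. The class I heavy chains H2-K1 and H2-D1, whose near-identical sequences make the split of reads uncertain, differed less, by log2 0.24 and 0.23.

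Several interferon-stimulated genes also had higher values in every 28-week library. Isg15 (chromosome 4, 156199424 to 156200818, minus strand), a ubiquitin-like modifier, was at 3.53, 9.13 and 10.9 CPM at 20 weeks and at 27.7, 15.9 and 30.2 CPM at 28 weeks. Its log2 fold change was 1.65 (SE 0.36, edgeR unadjusted p = 0.000839, DESeq2 adjusted p = 0.0161). Usp18, the protease that removes ISG15, was at 2.86, 4.08 and 2.74 CPM and then at 6.01, 8.22 and 11.8 CPM (log2 1.43, SE 0.38). Controls had a log2 fold change of 1.04 for Usp18 (0.68 without 28-week control library 1), and the interaction did not pass (unadjusted p = 0.48). Ifit1, which binds foreign RNA ends, was at 3.89, 3.16 and 3.79 CPM and then at 5.38, 7.63 and 13.3 CPM, with log2 fold changes of 1.28 in knockouts and 1.77 in controls (interaction unadjusted p = 0.526). The control value was 1.10 without 28-week control library 1. Bst2, the membrane tether of budding virus, was at 35.5, 42.0 and 39.5 CPM and then at 63.1, 45.1 and 88.3 CPM. Gbp2, a guanylate-binding protein, was at 16.6, 16.8 and 14.3 CPM and then at 18.7, 24.6 and 30.0 CPM. Rtp4, an interferon-induced chaperone outside the list that was named after its values were seen, was at 1.96, 4.89 and 5.70 CPM and then at 13.2, 10.3 and 15.4 CPM (DESeq2 adjusted p = 0.00662). For each of these genes all 28-week libraries exceeded all 20-week libraries.

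The promoters of these genes were searched for the pattern that interferon-activated factors of the ISGF3 and IRF families are known to bind. The pattern was GAAANNGAAA, searched on both strands, so that TTTCNNTTTC is its other-strand form, and overlapping matches were kept. The window was 250 bases before to 50 bases after the start site, from RefSeq (GRCm38.p6). Of the 34 members 27 had a promoter entry, and 12 of them (44.4%) held the pattern, against 446 of 12120 tested genes with an entry (3.68%). Among members that did not overlap between the ages it was in 6 of 12 (50%), and among the other members in 6 of 15 (40%). The list was assembled from interferon-responsive genes, so this share describes the list. A match is a description of these letters, not a binding site. The 6 promoters shown are those of the non-overlapping members that hold the pattern. Each stretch runs from 25 bases before the first match to 25 after the last or to the start site, 5′ to 3′ on the gene's strand, with matches in capitals.
Isg15: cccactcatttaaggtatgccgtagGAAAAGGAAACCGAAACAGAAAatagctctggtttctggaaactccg
Bst2: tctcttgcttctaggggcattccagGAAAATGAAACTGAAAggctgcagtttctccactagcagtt
Oas1a: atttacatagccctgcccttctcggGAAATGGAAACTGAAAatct
Ifit1: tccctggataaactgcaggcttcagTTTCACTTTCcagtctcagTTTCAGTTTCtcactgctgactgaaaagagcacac
Gbp2: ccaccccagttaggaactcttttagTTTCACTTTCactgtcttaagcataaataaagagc
Rsad2: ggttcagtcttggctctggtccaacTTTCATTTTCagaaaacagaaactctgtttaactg
The stretches lie at chr4:156200850-156200921 (minus) for Isg15, chr8:71537562-71537627 (minus) for Bst2 and chr5:120907526-120907570 (minus) for Oas1a. Those of Ifit1, Gbp2 and Rsad2 lie at chr19:34640760-34640838 (plus), chr3:142620579-142620638 (plus) and chr12:26456538-26456597 (minus). Isg15 has 3 overlapping matches, Bst2 and Oas1a have 2 each that overlap, and Ifit1 has 2 that do not. The last match of Oas1a ends 4 bases before the start site, and that of Bst2 ends 114 bases before it.

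**Figure D3:**
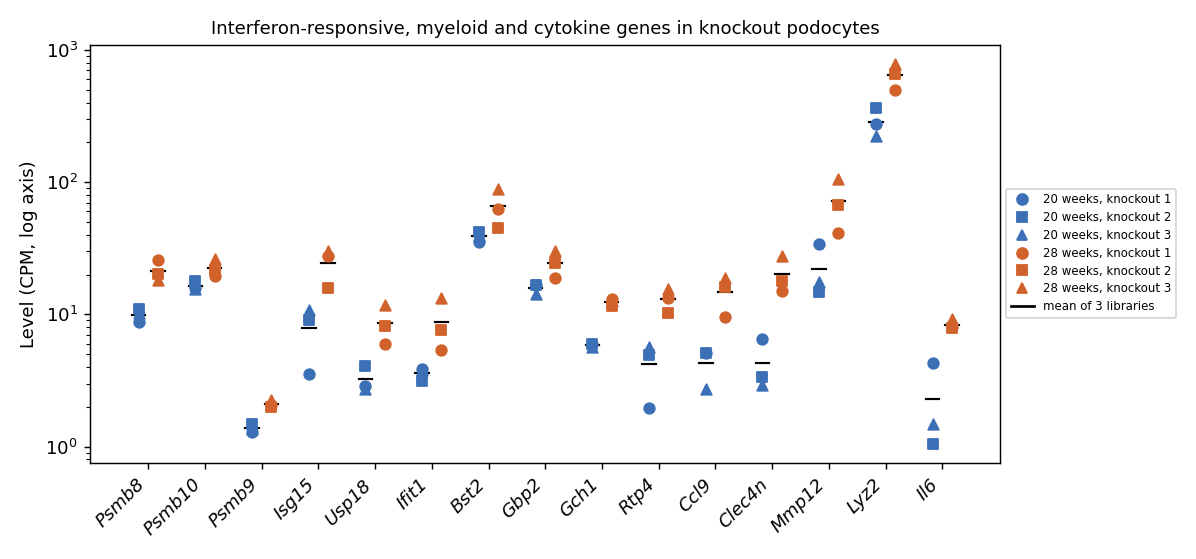
CPM on a log axis of 15 interferon-responsive, myeloid and cytokine genes in each of the 3 knockout libraries at 20 weeks and at 28 weeks, with bars at the means. The genes drawn were picked from those whose ages do not overlap, with all 28-week libraries above all 20-week libraries, as for Psmb8 at 18.3 to 25.7 CPM against 8.74 to 10.9 CPM.

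Most inflammatory and NF-kB genes also had higher group values at 28 weeks, with more spread between libraries. The list summed to 1506, 1292 and 1188 CPM at 20 weeks and to 1190, 1445 and 2671 CPM at 28 weeks. Against the 20-week knockout mean, the members' median log2 difference was -0.09, 0.11 and 1.28 in 28-week libraries 1 to 3. In the 20-week libraries it was 0.34, -0.13 and -0.15. As a list, only 28-week library 3 thus lay above the 20-week range. Of 32 tested members, 11 had higher values at an unadjusted p below 0.05 and 0 lower values, against 6.83% and 4.41% of all genes. The median log2 fold change was 0.74, against -0.05 in controls (-0.12 to 0.08 with each control library left out). Leaving out 28-week library 1 gave a count of 13 (2.64% of all genes), and with gene length in the offsets it was 8 (4.75% of all genes). The ages did not overlap for 5 members with higher values (8.24% of all genes) and 1 with lower values (6.77% of all genes). Several chemokines differed widely among the 28-week libraries.

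The cytokine Il6 was at 4.29, 1.05 and 1.48 CPM at 20 weeks and at 8.03, 7.92 and 9.19 CPM at 28 weeks (log2 1.88, SE 0.76, edgeR unadjusted p = 0.0305). The alarmin Il1a was at 0.224, 0.0263 and 0.200 CPM and then at 1.31, 3.09 and 4.24 CPM, from 16 reads over the 20-week libraries (DESeq2 adjusted p = 0.00476). In both genes all 28-week libraries were above all 20-week libraries. Ccl2, the main monocyte chemokine, was at 52.6, 24.6 and 26.3 CPM and then at 23.1, 229 and 232 CPM, so 28-week libraries 2 and 3 were high and library 1 was not. Its neighbour Ccl7 had the same order, at 17.9, 4.97 and 5.42 CPM and then at 9.80, 35.1 and 51.0 CPM. Nfkbia, the inhibitor that NF-kB itself induces, was at 50.9, 66.1 and 60.1 CPM and then at 64.6, 142 and 141 CPM. Without library 1 the log2 fold changes of Ccl2 and Nfkbia were 2.72 and 1.22, against 2.23 and 0.98 with it. The neutrophil chemokine Cxcl5 had 1 read over the 20-week libraries and 24.3 CPM in 28-week library 3, with 2.61 and 0.0329 CPM in libraries 1 and 2. Cxcl2, of the same kind, was likewise highest in library 3, at 22.6 CPM, against 3.86 and 0.0658 CPM in libraries 1 and 2 and at most 0.140 CPM at 20 weeks. Cxcl16, a membrane-bound chemokine, was instead highest in library 1, at 293 CPM against 49.3 and 79.0 CPM, and at 32.8 to 40.1 CPM at 20 weeks. The 6 control libraries held 1.48 to 11.3 CPM of Cxcl2 and 83.2 to 225.5 CPM of Cxcl16. They held 1.08 to 7.755 CPM of Il6 and 0.0552 to 0.908 CPM of Il1a.

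Gch1, which starts the synthesis of tetrahydrobiopterin, the cofactor of nitric oxide synthases, had the smallest p of all genes. It is in no list and is named after its values were seen. It lies on chromosome 14, 47153895 to 47189413, minus strand. It was at 5.94, 5.95 and 5.70 CPM at 20 weeks and at 13.0, 11.5 and 12.5 CPM at 28 weeks. The log2 fold change was 1.07 (SE 0.18, edgeR unadjusted p = 8.91e-05 and adjusted p = 0.429, DESeq2 adjusted p = 0.000147). It ranged from 1.00 to 1.10 when each library was left out in turn. The acute phase protein gene Saa3 had 4 reads over the 20-week libraries and 877 at 28 weeks. It was at 0.0840, 0 and 0.0285 CPM and then at 0.778, 14.2 and 12.0 CPM, and DESeq2 called it (adjusted p = 1.67e-06). The plasma protein haptoglobin, Hp, was at 13.0 to 14.7 CPM at 20 weeks and at 10.5, 29.6 and 29.8 CPM at 28 weeks. Havcr1, the tubule injury marker KIM-1, was at 16.8, 6.21 and 9.38 CPM and then at 73.3, 7.00 and 80.4 CPM, so 28-week library 2 lay within the 20-week range. The 6 control libraries held 164 to 334 CPM of Havcr1, above every knockout library.

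Genes of myeloid cells were among the highest folds named by the rule. Ccl9 and Ccl6, chemokines of the macrophage lineage, were at 5.10, 5.08 and 2.74 CPM and at 13.5, 6.34 and 4.73 CPM at 20 weeks. At 28 weeks Ccl9 was at 9.55, 16.1 and 18.8 CPM and Ccl6 at 15.9, 41.2 and 36.2 CPM. Mmp12, macrophage elastase, was at 34.2, 14.7 and 17.7 CPM and then at 41.2, 67.0 and 106 CPM. Clec4n, a fungal pattern receptor of myeloid cells, was at 6.5, 3.34 and 2.94 CPM and then at 15, 17.8 and 27.7 CPM (log2 2.24, SE 0.64). The naming rule took such genes only where the ages did not overlap. The log2 fold changes of these 4 genes in controls were between -1.13 and -0.34. Without 20-week control library 3 they were 0.12 for Clec4n, 0.40 for Ccl6, 0.25 for Mmp12 and -0.33 for Ccl9. Plek, the platelet and leukocyte protein pleckstrin, was at 3.95, 0.763 and 2.25 CPM and then at 6.01, 8.91 and 10.6 CPM.

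The leukocyte and macrophage markers had higher values at 28 weeks too. All 19 tested members had values above 0 in log2 fold change, with a median of 1.13 in knockouts. The control median was -0.69, and 0.68 without 20-week control library 3, which held 504 CPM of these markers against 102 to 148 CPM in the other control libraries. Of the 19, 1 reached an unadjusted p below 0.05, near the 6.83% of all genes, and 3 did not overlap (8.24% of all genes). Their summed level was 427, 432 and 267 CPM at 20 weeks and 703, 858 and 874 CPM at 28 weeks. Most of it was Lyz2, the macrophage lysozyme, at 275, 364 and 224 CPM and then at 502, 659 and 787 CPM. The members' median log2 difference from the 20-week knockout mean overlapped between the ages. It was 0.85, -0.145 and -0.73 at 20 weeks and 1.46, 1.37 and 0.36 at 28 weeks. Ptprc, the CD45 antigen of all leukocytes, was at 3.25, 1.32 and 2.17 CPM and then at 11.1, 1.97 and 3.61 CPM. C1qb, of the macrophage-made complement component, was at 17.4, 8.50 and 4.73 CPM and then at 34.6, 35.0 and 7.19 CPM. The macrophage surface gene Adgre1 was at 5.38, 2.79 and 1.97 CPM and then at 6.38, 6.91 and 8.59 CPM. The T cell genes Cd3e and Cd4 were under the level needed for testing. The part of leukocyte transcripts in the inflammatory and interferon results was not tested.

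Podocyte genes had lower values at 28 weeks in most members of each list, and none was called. All 15 slit diaphragm genes had lower values, with a median log2 fold change of -0.59. Of all genes 4.41% were lower at an unadjusted p below 0.05, and 6.77% did not overlap with lower values. Of the 15 genes 3 were lower at that p and 4 did not overlap. Of 22 foot process and surface genes 9 were lower at that p and 8 did not overlap, with a median of -0.49. Of 13 podocyte transcription factors and regulators 2 were lower at that p and 4 did not overlap, with a median of -0.50. Of 17 genes of the glomerular basement membrane and its receptors 4 were lower at that p and 7 did not overlap, with a median of -0.65. In controls the medians of the slit diaphragm, foot process and basement membrane lists were 0.11, 0.32 and 0.21. Without 28-week control library 1 they were -0.28, 0.03 and -0.39, so the control medians depend on that library. It held 7958 CPM of the foot process genes against 4862 and 4947 CPM in the others of its age. Those others are the close pair named above, and the medians without control library 1 rest on them. In none of the 4 lists did a member have a higher value at that p. Without 28-week library 1 the counts were 2 of 15, 2 of 22, 0 of 13 and 2 of 17, against 3.07% of all genes, and the medians were -0.50, -0.41, -0.41 and -0.59. With library 1 of both ages left out they were 2, 4, 1 and 1, against 2.65% of all genes, with medians between -0.58 and -0.45. With gene length in the offsets they were 2, 10, 2 and 4, against 4.16% of all genes, with medians between -0.59 and -0.42. The lists' median lengths were 8438, 5947, 3990 and 6615 bases. The 28-week library 1 was the lowest for many of these podocyte genes. It held 10040 CPM of junction and keratin genes, within the 5721 to 11630 CPM of the control libraries. In 20-week knockouts the foot process list summed to 8600 to 9403 CPM, above the 4758 to 5996 CPM of 20-week controls. The basement membrane list was likewise above them, at 10430 to 13800 CPM against 7343 to 9096 CPM. Sums of the slit diaphragm and regulator lists overlapped between genotypes at 20 weeks, and those of all 4 lists at 28 weeks. The lower values are thus relative to 20-week knockouts, not to controls. The part of other cells in the podocyte results was not tested.

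At the cell surface, Podxl (chromosome 6, 31519488 to 31563981, minus strand), whose charge keeps the filtration slits open, was at 612, 676 and 628 CPM at 20 weeks and at 148, 436 and 362 CPM at 28 weeks. Its log2 fold change was -1.02 (SE 0.42, edgeR unadjusted p = 0.0335), and -0.72 without 28-week library 1. Dag1, the matrix receptor dystroglycan, was at 967, 1077 and 968 CPM and then at 148, 456 and 573 CPM (log2 -1.36, SE 0.59). In both genes the 28-week library 1 was lowest and the ages did not overlap. Npnt, a basement membrane ligand made by podocytes, was at 151, 135 and 146 CPM and then at 104, 114 and 96.0 CPM. Ezr, the ezrin link between podocalyxin and actin, was at 221, 225 and 185 CPM and then at 181, 128 and 127 CPM. For Npnt and Ezr library 1 was not the lowest, and their log2 fold changes without it were -0.49 and -0.76. Actn4, an actin crosslinker mutated in familial glomerulosclerosis, was at 1563, 1758 and 1493 CPM and then at 756, 1024 and 1294 CPM. Myo1e, a motor protein also tied to inherited nephrotic disease, was at 152, 199 and 167 CPM and then at 61.4, 100.5 and 116 CPM. Synpo and Wt1 overlapped, with log2 fold changes of -0.91 (SE 0.64) and -0.50 (SE 0.38).

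In the slit diaphragm list, Crb2, a crumbs polarity protein, was at 7.06, 13.0 and 11.9 CPM at 20 weeks and at 0.902, 3.39 and 4.12 CPM at 28 weeks (log2 -1.92, SE 0.77). Kirrel, the nephrin-like protein NEPH1, was at 278, 296 and 286 CPM and then at 88.7, 157 and 229 CPM. Both were lower in every 28-week library. Nphs1 had a log2 fold change of -1.26 (SE 0.68) at its low level, with overlap.

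In the basement membrane list, Itga3 (chromosome 11, 95044474 to 95076801, minus strand), the integrin subunit that anchors podocytes to laminin, had the smallest p. It was at 500, 416 and 320 CPM at 20 weeks and at 238, 232 and 178 CPM at 28 weeks. The log2 fold change was -0.93 (SE 0.21, edgeR unadjusted p = 0.00106, DESeq2 adjusted p = 0.0194), and -1.04 without 28-week library 1. In controls Itga3 was at 676, 608 and 472 CPM and then at 1152, 849 and 849 CPM. The interaction was -1.63 on the log2 scale (SE 0.30, edgeR unadjusted p = 0.000198 and adjusted p = 0.538), the smallest p of all genes in that contrast. Col4a3, Col4a4 and Col4a5, whose chains form the mature collagen IV network, had log2 fold changes of -1.06, -0.95 and -0.77, and the ages did not overlap in each. Col4a3 was at 780, 782 and 1304 CPM and then at 182, 606 and 585 CPM. Lamb2, the mature laminin beta chain, was at 210, 257 and 231 CPM and then at 41.6, 99.1 and 151 CPM. Without library 1 the log2 fold changes of Col4a3 and Lamb2 were -0.71 and -0.94, with unadjusted p of 0.147 and 0.121.

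**Figure D4:**
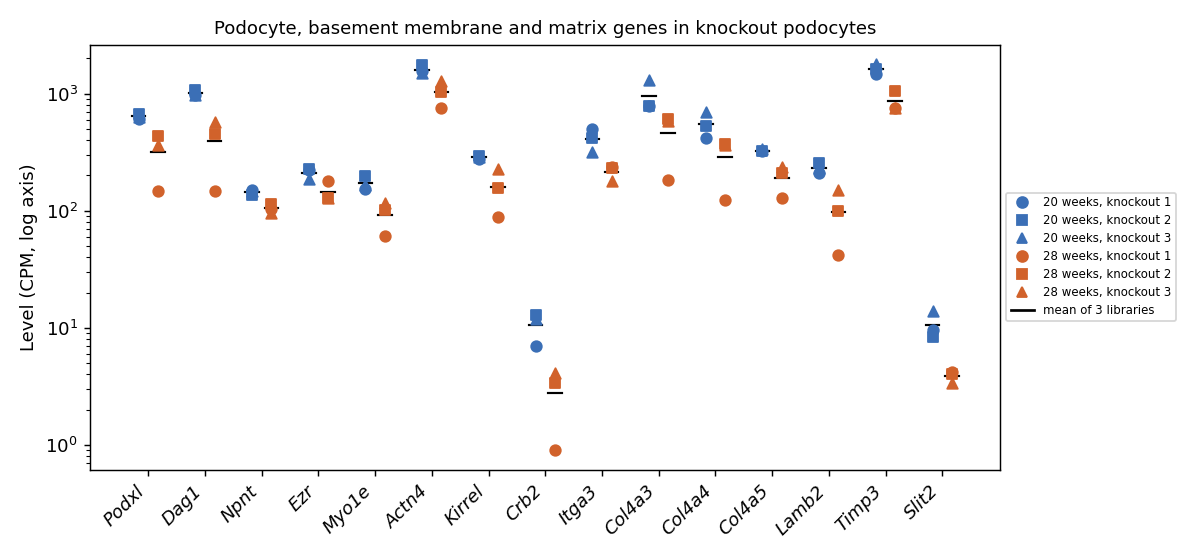
CPM on a log axis of 15 podocyte, basement membrane and matrix genes in each of the 3 knockout libraries at 20 weeks and at 28 weeks, with bars at the means. The genes drawn were picked from those whose 28-week libraries all lie below all 20-week libraries, and 28-week library 1 is the lowest for Podxl (148 CPM) and Dag1 (148 CPM) but not for Itga3 (238 CPM).

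Hippo pathway genes encode the kinase cascade that restrains the coactivators YAP and TAZ, which the study names as its pathway of interest. Of 35 tested members 6 had lower values at 28 weeks at an unadjusted p below 0.05 and 0 had higher values, against 4.41% and 6.83% of all genes. The median log2 fold change was -0.31 (-0.04 in controls, -0.19 to 0.04 with each control library left out). Without 28-week library 1 the count was 4 (3.07% of all genes) and the median -0.21. With gene length in the offsets the count was 6 (4.16% of all genes) and the median -0.19, and without library 1 of both ages 3 (2.65%) and -0.14. Yap1 was at 196, 196 and 188 CPM at 20 weeks and at 136, 162 and 230 CPM at 28 weeks (log2 -0.13, SE 0.20). Wwtr1, which encodes TAZ, was at 244, 209 and 280 CPM and then at 174, 232 and 242 CPM. The kinases Lats1 (log2 -0.31, SE 0.26) and Lats2 (-0.49, SE 0.26) overlapped too. Members with the smallest p lay upstream or were partners of the coactivators. Nf2, the upstream activator merlin, was at 102, 125 and 95 CPM and then at 75.0, 84.5 and 74.3 CPM. Wwc2, a KIBRA paralogue, was at 300, 318 and 396 CPM and then at 200.1, 243 and 238 CPM. Vgll4, a competitor of YAP for TEAD factors, was at 68.3, 83.6 and 75.5 CPM and then at 58.5, 53.1 and 54.2 CPM. Values of these 3 genes did not overlap between the ages, with log2 fold changes between -0.58 and -0.45.

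YAP/TAZ target genes, 27 tested, had 4 lower values at an unadjusted p below 0.05, 0 higher values and a median of -0.26, against 4.41% lower and 6.83% higher of all genes. Without 28-week library 1 the counts were 0 lower and 2 higher, against 3.07% and 2.64% of all genes. The standard targets did not pass. Ccn2 was at 4439, 4815 and 4485 CPM at 20 weeks and at 1935, 4056 and 4412 CPM at 28 weeks, with library 1 lowest. Ccn1 was at 792, 1112 and 957 CPM and then at 578, 678 and 990 CPM, with overlap.

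Of 36 matrix genes 5 had lower values at 28 weeks at an unadjusted p below 0.05 (4.41% of all genes) and 0 higher values, with a median log2 fold change of -0.41. Library 1 of 28 weeks left out, the count was 4 (3.07% of all genes) and the median -0.24. With library 1 of both ages left out, 17 genes had higher and 19 lower values, 1 and 5 of them at that p, and the median was -0.014. Timp3, the matrix-bound inhibitor of metalloproteinases, was at 1485, 1627 and 1792 CPM at 20 weeks and at 758, 1058 and 756 CPM at 28 weeks (log2 -0.93, SE 0.24, edgeR unadjusted p = 0.00239). In controls Timp3 had a log2 fold change of 0.65 (0.35 without 28-week control library 1), and the interaction had an unadjusted p of 0.000639. Fbln5, which assembles elastic fibres, was at 104, 98.1 and 82.7 CPM and then at 32.9, 69.7 and 49.2 CPM. Col1a1 and Fn1, chief genes of fibrosis, overlapped, with log2 fold changes of -0.55 (SE 0.56) and -0.40 (SE 0.42).

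Of 25 TGF-beta and BMP genes 6 were lower at an unadjusted p below 0.05 (4.41% of all genes), with a median of -0.26. The count was 4 without 28-week library 1 (3.07% of all genes). Without library 1 of both ages it was 3 (2.65% of all genes), 9 of the 25 had higher values and the median was -0.098. Pmepa1, a feedback inhibitor that TGF-beta induces, was at 581, 742 and 597 CPM and then at 349, 415 and 418 CPM (log2 -0.70, SE 0.19). Smad6, the inhibitor of BMP signals, was at 16.7, 24.5 and 20.9 CPM and then at 6.91, 11.9 and 11.7 CPM. Bmp7, a kidney growth factor, was at 10.1, 7.58 and 6.70 CPM and then at 5.29, 6.38 and 4.53 CPM. For each of these genes all 28-week values lay below the 20-week values.

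Of 17 smooth muscle genes 1 was lower and 0 higher at an unadjusted p below 0.05 (4.41% and 6.83% of all genes), and the median was -0.01. Leaving out 28-week library 1, 14 of the 17 had higher values, and the median was 0.13. Of these 2 were higher at that p and 1 of the 17 was lower (2.64% and 3.07% of all genes). Of 16 pericyte and mesangial markers 11 had lower values, 1 was higher at that p (6.83% of all genes), and the median was -0.38. Without that library 9 had lower values, 2 were higher at that p (2.64% of all genes), and the median was -0.091. The smooth muscle gene lower at that p was Myocd, the coactivator that drives the smooth muscle programme, at 9.69, 8.76 and 9.47 CPM at 20 weeks and at 2.68, 3.58 and 4.3 CPM at 28 weeks (log2 -1.40, SE 0.47). In 28-week libraries 2 and 3 its classic targets were not low. Myh11 was at 74.9 and 71.8 CPM there, against 57.4 to 73.3 CPM at 20 weeks, and Acta2 was at 6532 and 5440 CPM, against 4581 to 5291 CPM. Pdgfrb, a receptor of pericytes and mesangial cells, was at 232, 226 and 199.9 CPM and then at 26.4, 139.9 and 147 CPM. Itga11, a collagen receptor, was at 144, 117 and 100.3 CPM and then at 6.22, 57.0 and 43.3 CPM.

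Ribosomal protein genes had the highest share of small p-values of all lists. All 24 had higher values at 28 weeks, with a median log2 fold change of 0.55 (-0.12 in controls, -0.25 to 0.013 with each control library left out). Of the 24, 20 had an unadjusted p below 0.05, against 6.83% of all genes and 27.3% in the bin of shortest genes. Rpl32, of the large subunit, was at 531, 588 and 594 CPM at 20 weeks and at 1195, 921 and 670 CPM at 28 weeks. Rps24, of the small subunit, was at 656, 615 and 634 CPM and then at 1265, 1042 and 744 CPM. In both, 28-week library 1 was highest and library 3 nearest to the 20-week values. Reads of these genes can also be split with their many processed pseudogenes. Without 28-week library 1 the count was 0 of 24 (2.64% of all genes) and the median 0.33. With gene length in the offsets the count was 3 of 24 (4.75% of all genes) and the median 0.23. The list's median length was 978.5 bases, within the bin of shortest genes.

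Respiratory chain genes encoded in the nucleus had 11 of 36 higher at an unadjusted p below 0.05 (6.83% of all genes) and a median of 0.28. Their median length was 1304 bases, also within the bin of shortest genes. Without 28-week library 1 the counts were 1 higher and 0 lower of 36, against 2.64% and 3.07% of all genes. With gene length in the offsets they were 1 higher and 2 lower, against 4.75% and 4.16%. Cox7a2, a subunit of cytochrome c oxidase, was at 113, 97.3 and 131 CPM and then at 184, 176 and 143 CPM. Of 13 genes encoded in mitochondria 2 were higher at that p, and 0 with gene length in the offsets. COX3 was at 44.3, 21 and 49.2 CPM and then at 93.1, 67.0 and 78.3 CPM. The peroxidase gene Prdx1, in a list of 28 antioxidant genes with 1 higher and 1 lower at that p, was at 1034, 947 and 956 CPM and then at 1935, 1531 and 1523 CPM. Its log2 fold change was 0.76 (SE 0.20), and 0.56 with gene length in the offsets.

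Other kidney epithelia were represented unevenly. Genes of junctions and keratins had a median log2 fold change of 0.62 over 30 members, and of -0.63 without 28-week library 1. The 20-week library 1 was high as well, at 3619 CPM summed against 568.7 and 641.6 CPM. With library 1 of both ages left out the median was 0.68, with 24 of 30 values higher. That value rests on 28-week library 3, at 1276 CPM, as 28-week library 2 was the lowest of all at 230.5 CPM. Distal nephron genes, from the loop of Henle to the collecting duct, had a median of 1.01 over 17 members and of -0.34 without 28-week library 1. Without library 1 of both ages it was 2.46, with 15 of 17 values higher. The summed level of libraries 2 and 3 still overlapped, at 38.3 and 26.3 CPM at 20 weeks and 21.2 and 59.3 CPM at 28 weeks. Some members had hardly any reads there, as Tmem213, at 0 CPM in both at 20 weeks and at 0.0329 and 0 CPM at 28 weeks. Wfdc2, a secreted inhibitor made by distal nephron epithelium, was at 11.5, 9.81 and 0.0285 CPM at 20 weeks and at 733, 2.99 and 28.6 CPM at 28 weeks. Mal2, an apical transport protein, was at 13.7, 4.60 and 9.04 CPM and then at 456, 0.460 and 23.9 CPM. Cdh1, which encodes E-cadherin, had its highest value in 20-week library 1, at 255 CPM, against 9.23 and 12.8 CPM in the other 20-week libraries and 18.8, 2.17 and 38.1 CPM at 28 weeks. Of the 12 genes with the highest folds that the naming rule took, Mfsd4b1, ccdc198, Tesc, Krtcap3, Cxcl16 and Plac8 were several times higher in 28-week library 1 than in the other libraries of that age. Tesc, for example, was at 24.2 CPM there and at 1.74 and 2.46 CPM in libraries 2 and 3. Without library 1 their log2 fold changes were between 0.46 and 1.81, each with an unadjusted p above that with it.

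Among the 12 genes with the lowest folds named by the rule, several had like values in all 28-week libraries. Adcy1, a calmodulin-regulated adenylate cyclase, was at 8.43, 9.95 and 9.87 CPM at 20 weeks and at 2.49, 4.08 and 2.63 CPM at 28 weeks (log2 -1.62, SE 0.35, DESeq2 adjusted p = 0.00568). Slit2, the ligand of the podocyte receptor Robo2, was at 9.66, 8.31 and 14.1 CPM and then at 4.2, 4.08 and 3.41 CPM (log2 -1.45, SE 0.36, DESeq2 adjusted p = 0.0309). Robo2 itself, named after its values were seen, was at 53.7, 33.1 and 69.1 CPM and then at 20.3, 41.6 and 21.3 CPM, with overlap. Gpc3, a growth-regulating proteoglycan, was at 7.39, 13.0 and 10.9 CPM and then at 4.42, 3.06 and 4.70 CPM, while its control values were higher at 28 weeks (log2 1.34, and 0.65 without 28-week control library 1). Adgrg1 and Crybg1 had their high 20-week mean from library 1, at 499 and 37.7 CPM against 132 and 117 CPM and 7.58 and 6.64 CPM. Without it their log2 fold changes were -0.53 and -0.64.

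Other genes that DESeq2 called lower, named after their values were seen, included regulators of signalling and transcription. Plxnb1, a semaphorin receptor, was at 111, 137 and 117 CPM at 20 weeks and at 66.3, 63.2 and 61.4 CPM at 28 weeks. Its log2 fold change was -0.93 (SE 0.21, DESeq2 adjusted p = 0.0224). Rxra, the shared partner of nuclear receptors, was at 43.3, 59.7 and 41.0 CPM and then at 23.7, 30.1 and 23.1 CPM. Foxo1, a factor restrained by insulin signalling, was at 57.8, 35.5 and 51.5 CPM and then at 28.6, 32.3 and 24.8 CPM. Phf8, a histone demethylase, was at 38.4, 40.8 and 35.7 CPM and then at 24.9, 24.8 and 23.3 CPM. The frizzled receptor Fzd1 was at 37.1, 35.6 and 31.8 CPM and then at 22.3, 27.6 and 21.7 CPM. All 28-week values lay below the 20-week values in these 5 genes, and their control log2 fold changes were between -0.08 and 0.29, or between -0.29 and 0.25 without 28-week control library 1.

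Cell cycle genes had 6 of 30 lower and 1 higher at an unadjusted p below 0.05, against 4.41% and 6.83% of all genes, with a median of -0.05. Foxm1, which drives mitotic genes, was at 15.4, 21.7 and 11.9 CPM and then at 7.19, 10.5 and 6.99 CPM. The replication helicase subunits Mcm2, Mcm3, Mcm4 and Mcm6 were lower in all 28-week libraries, with log2 fold changes between -0.61 and -0.36. The count of lower genes was 6 of 30 without 28-week library 1 (3.07% of all genes), 4 without library 1 of both ages (2.65%) and 8 with gene length in the offsets (4.16%). Mki67 was at 34.1, 13.4 and 36.9 CPM and then at 17, 31.7 and 21.4 CPM, with overlap.

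Genes of H3K36 methylation, 20 tested, had 3 lower values at an unadjusted p below 0.05 (4.41% of all genes). Of them 1 was left without 28-week library 1 (3.07% of all genes) and 0 with gene length in the offsets (4.16% of all genes). The 3 were the demethylases Kdm2b (log2 -0.44, SE 0.13) and Kdm4b (-0.74, SE 0.34) and Dnmt3a (-0.48, SE 0.19), a DNA methyltransferase that reads these marks. Histone genes are short and near-identical, so their counts are uncertain. H4c8 was at 2.86, 3.00 and 3.34 CPM and then at 6.29, 5.43 and 6.82 CPM, with a log2 fold change of 1.01 that was 0.60 with gene length in the offsets.

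Kidney injury and acute phase genes had 3 of 18 higher and 0 lower at an unadjusted p below 0.05, against 6.83% and 4.41% of all genes. The count was 4 higher without 28-week library 1 (2.64% of all genes), 7 without library 1 of both ages (2.95%) and 2 with gene length in the offsets (4.75%). The counts of the remaining lists, from the main fit, stand against the same 6.83% higher and 4.41% lower of all genes. Counts of higher and lower genes at that p were 0 and 0 of 30 for fatty acid and cholesterol synthesis, 3 and 1 of 32 for fatty acid oxidation, and 2 and 2 of 29 for glucose uptake and glycolysis. They were 2 and 1 of 28 for p53 targets and apoptosis, 0 and 2 of 28 for endoplasmic reticulum stress, 1 and 1 of 26 for immediate early and heat shock genes, and 0 and 3 of 30 for Notch and Wnt genes. Complement had 1 and 0 of 16, endothelial markers 1 and 0 of 16, parietal epithelial markers 0 and 0 of 12, proximal tubule markers 0 and 1 of 9, clock genes 0 and 1 of 16, and VEGF and renin-angiotensin genes 1 and 0 of 19. Mesothelial markers had 0 and 1 of 7. Without library 1 of both ages the counts of higher genes were 4 of 16 for endothelial markers, 3 of 19 for VEGF and renin-angiotensin genes, 5 of 32 for fatty acid oxidation and 5 of 28 for antioxidant genes, against 2.95% of all genes. Irs2, an adaptor of the insulin receptor, was at 24.6, 44.1 and 30.3 CPM and then at 13.9, 14.5 and 19.3 CPM. Egfl7, an endothelial secreted protein, was at 8.79, 10.4 and 8.64 CPM and then at 15.8, 22.3 and 16.6 CPM. The senescence-linked inhibitor Cdkn1a was at 543, 551 and 466 CPM and then at 519, 464 and 670 CPM, with overlap. No red blood cell gene reached the level needed for testing.

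**Figure D5:**
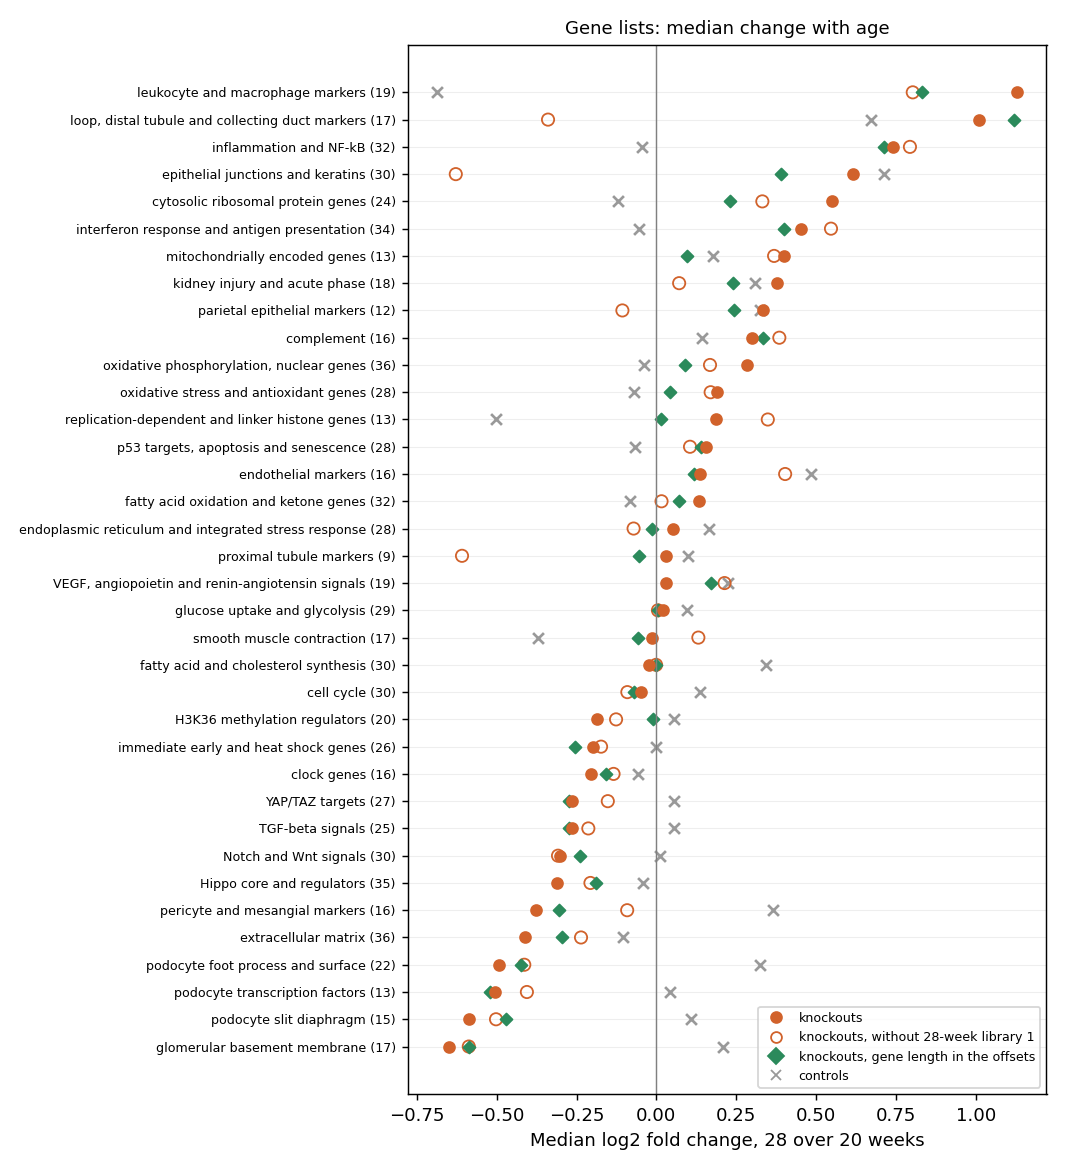
Median log2 fold change of 28 over 20 weeks for each gene list with at least 9 tested members (number in brackets), in knockouts, in knockouts without 28-week library 1, in knockouts with gene length in the offsets, and in controls. The interferon list stays between 0.40 and 0.55 in the 3 knockout fits, while the median of junction and keratin genes goes from 0.62 to -0.63 without 28-week library 1.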

How the data were processed

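Gene expression was measured by RNA sequencing of primary podocytes in 12 libraries, 3 per genotype and age. The authors deposited raw counts per gene symbol and FPKM values, a table of each per age, per the file headers. The build was GRCm38 (mm10), per the submitters' processing notes. For the aligner, counting program, strand setting and annotation no source used here gives a name. There were 23829 genes in the 20-week table and 23777 in the 28-week table, with 22290 shared. A gene of 1 table only held at most 15 reads, summed over its libraries.

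Counts of all 12 libraries were fitted in 1 edgeR 4.0.16 quasi-likelihood model with 4 groups (R 4.3.3, TMM scaling, filterByExpr defaults, no block). The controls share the estimate of spread. Contrasts were the change with age in knockouts, in controls, and their difference, with p-values adjusted over all 15662 genes tested. SEs are the fold change over the square root of F, and CPM use TMM-scaled library sizes. Gene lengths were those implied by the deposited counts and FPKM. Age coincides with the deposited table, so handling that differed between the tables cannot be told apart from age. The scripts were tested on simulated data. Coordinates are from GENCODE M21 on GRCm38.

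The libraries, gene lists and naming rule were chosen with earlier results of these data known. The rule took Nsd2 with 3 related enzymes, the 12 highest and 12 lowest fold changes (unadjusted p below 0.05, mean of at least 5 CPM over the knockouts, no overlap between ages, predicted genes passed over), up to 3 genes per list with the smallest p, a set of marker genes and the 5 smallest interaction p-values. DESeq2 calls and further list members were added after their values were seen. Some genes that the rule names are not reported here. Alternatives were DESeq2 1.42.0, limma 3.58.1 on log2 FPKM with pseudocounts of 0.1 and 1, other scaling and filters, a replicate block, each library left out, and gene length in the offsets.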

Additional observations from a re-analysis of the deposited data

How the results depend on the processing

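The counts of called genes in knockouts were 0 in either direction by edgeR under the other scalings, filters and models, gene length in the offsets, and each control library left out. DESeq2 called 22 genes higher and 18 lower, and 27 for the interaction. limma called 1 gene lower on log2(FPKM + 0.1) and 1 on log2(FPKM + 1). With each library left out the higher calls ranged from 0 to 3 and the lower calls from 0 to 1, the highest being without 28-week knockout library 2 (Havcr1, Prr15l and Timd2 higher, Ston2 lower). Without 28-week library 1 the higher calls were 1 and the genes at an unadjusted p below 0.05 were 916 in place of 1759. The unfiltered table gave 2002, the knockout libraries alone 1126, the fit without library 1 of both ages 895, and gene length in the offsets without 28-week library 1 gave 867. The cause was not tested.

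Same-numbered libraries of the 2 ages had correlations of 0.328, 0.237 and -0.0459 between their deviations from the group means. For libraries of different numbers they were between -0.422 and 0.27. With 3 libraries a group these values cannot decide whether the numbers pair the samples. With the replicate block 0 genes were called higher and 0 lower, and 1313 had an unadjusted p below 0.05. With the block over the knockout libraries alone it was 1089, and 1126 without the block.

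Of 240 named genes 225 kept their direction in every alternative that tested them. Many were named because their ages did not overlap, their p was small or DESeq2 called them. For such genes the direction with libraries left out was largely fixed by that choice, so this count is no measure of robustness. Without library 1 of both ages the log2 fold changes that turned were Nsd1 0.039, Plvap 0.32, Cdh1 0.83, Krt7 -0.034, Acta2 0.18, Myh11 0.14, Fn1 0.082 and Mki67 0.026. With gene length in the offsets Nsd1 was at 0.0014, Nsd3 at 0.060 and Cdkn1a at -0.016. With that and without 28-week library 1 the values were Nsd1 0.078, Nsd3 0.028, Cldn8 -0.97, Yap1 0.045, Krt18 -0.39, Krt7 -0.47, Acta2 0.27, Myh11 0.20 and Mki67 0.076. Under upper-quartile scaling Acta2 was at 0.0063. With each library left out the ranges were -0.93 to 8.11 for Cldn8, -0.68 to 0.054 for Plvap, -0.061 to 0.72 for Emcn, -3.14 to 0.84 for Cdh1, -0.26 to 1.71 for Krt18, -0.39 to 2.10 for Krt7, -0.35 to 0.26 for Acta2, -0.86 to 0.10 for Myh11, -0.026 to 0.59 for Pecam1 and -0.083 to 0.17 for Cdkn1a. The cause was not tested. With 3 libraries a group and a median SE of 0.27 on the log2 scale, changes of that size in single genes were not detectable. That SE is no limit of detection, as far larger changes were not called either. Psmb8, at a log2 fold change of 1.10 (SE 0.20), had an edgeR adjusted p of 0.429.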
